A study of Mus musculus with 6 samples.

Results

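The miR-191 and miR-425 hairpins lie side by side on mouse chromosome 9, and each gives a 5p and a 3p mature arm. The 4 arms, miR-191-5p, miR-191-3p, miR-425-5p and miR-425-3p, were found by name among the 1251 miRNA arms of the deposited table, and all 4 had a row. The 2 5p arms were abundant enough to be tested together with 267 other arms, while the 3p arms were at or near the lowest value of the table. The libraries came from C57BL/6J mice, an inbred strain, which were 5 to 6 weeks old at the start and ate a high-fat diet for 11 weeks (45% of energy from fat, 20% from protein, 35% from carbohydrate). They were fasted for 4 hours before the tissue was taken. By their titles and the study's design text, all 6 libraries are of animals whose diet also held 6.75% eicosapentaenoic acid (EPA), an omega-3 fatty acid, while the treatment text of each sample names the high-fat diet alone. The interscapular brown depot gave 3 libraries (BF-EPA 3, 4 and 5) and the inguinal subcutaneous depot the other 3 (SUB-EPA 1, 3 and 8), so the comparison is between depots under 1 diet. The libraries are of whole tissue, in which fewer cells of a type and less RNA per cell cannot be told apart.

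A miRNA is cut from a hairpin as a duplex of 2 arms, of which usually 1, the guide, is kept in the silencing complex and pairs with target mRNAs through its seed, bases 2 to 8. MiR-191 and miR-425 are processed from a shared primary transcript and are described in many tissues. MiR-191 is abundant in blood-forming cells, where its fall is needed for red cell precursors to lose their nucleus, and miR-425-5p is known in human cells as a repressor of the mRNA for atrial natriuretic peptide, a hormone that acts on fat cells. MiR-191-5p is also one of the miRNAs proposed as a steady reference for quantitative PCR, which is why its constancy across tissues is of interest.

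The mature sequences show which seed each arm would bring to its targets, and were matched to the RefSeq table (GRCm38.p6) for all 4 arms. Capitals mark the seed, bases 2 to 8.
miR-191-5p: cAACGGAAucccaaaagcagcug
miR-425-5p: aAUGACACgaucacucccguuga
miR-191-3p: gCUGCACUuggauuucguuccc
miR-425-3p: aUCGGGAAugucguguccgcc
miR-489-3p: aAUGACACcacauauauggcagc

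The 4 seeds differ from each other, so the pair does not act through a common seed. Among the 1679 mature names of the RefSeq table, miR-489-3p, from chromosome 6, was the single miRNA found to share a seed with a member, namely with miR-425-5p. MiR-489-3p was listed at the lowest value in all 6 libraries.

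The hairpins are printed to show where each arm is cut. Capitals mark the 2 mature arms, the 5p arm first.
Mir191: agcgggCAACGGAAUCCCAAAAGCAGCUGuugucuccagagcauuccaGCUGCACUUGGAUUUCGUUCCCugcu
Mir425: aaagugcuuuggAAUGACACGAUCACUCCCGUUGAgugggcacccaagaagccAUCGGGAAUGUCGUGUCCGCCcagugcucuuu

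Mir191 spans chr9:108568319-108568392 and Mir425 chr9:108568777-108568861, both on the plus strand of GRCm38 and 384 bases apart. Whether they lie inside the protein-coding gene Dalrd3 depended on the annotation. RefSeq places Dalrd3, whose protein is a cofactor in tRNA methylation, at chr9:108567484-108572773, a span that holds both hairpins. In GENCODE M21 the gene starts at position 108569886, which leaves 1024 bases between the end of Mir425 and Dalrd3, and 0 of its 9 transcripts cover a hairpin. There both hairpins fall in the single exon of the long non-coding transcript 4833445I07Rik-201 (chr9:108567533-108569174), and Mir191 also falls in the intron of the shorter 4833445I07Rik-202. GENCODE M21 further lists a miRNA gene, Gm24083, on the opposite strand over Mir191. The level of the host transcripts was not measured in this table.

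The values are normalized log2 abundances, with a lowest value, here called the floor, of 3.32 and a maximum of 18.67. The sorted values of the libraries were nearly the same, so that a value near the top of the table stands for a rank. The read depth of the libraries is unknown from these values, so no counting interval is given, and no fold is given against the floor. Libraries had 235 to 273 arms above the floor. The labels do not say that the libraries came from separate mice, so p-values rest on the spread among 6 libraries, which may be technical. The brown adipocyte markers (4 of 4 tested, all 4 higher in brown fat) summed to 18.81 to 18.85 in brown and 15.31 to 15.61 in subcutaneous libraries on the log2 scale. Of 5 tested leukocyte arms 1 was higher and 4 lower in brown fat, of 2 red cell arms 1 each way, and of 5 stromal and 2 endothelial arms 4 and 2 were lower. MiR-142-3p, miR-155-5p and both miR-144 arms were at the floor in all libraries. The 3 tested muscle arms were not called, and their summed level ran from 10.31 to 17.21 in brown and from 10.73 to 16.91 in subcutaneous libraries, with miR-1a-3p at the floor. Of 7 epithelial markers, all were in the table and none was at the floor in all libraries. Their summed level was 15.27 in SUB-EPA 1, against 8.06 to 8.60 in brown fat and 8.23 to 8.68 in the other 2 subcutaneous libraries. In SUB-EPA 1, miR-205-5p, an epithelial miRNA, stood at 15.02, while it was 7.35 in SUB-EPA 3, 5.74 in SUB-EPA 8 and at the floor in brown fat. Results are therefore also given without SUB-EPA 1.

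MiR-191-5p was one of the most abundant miRNAs of both depots and differed little between them. Its log2 value was 15.87, 16.02 and 16.02 in BF-EPA 3, 4 and 5, and 16.38, 15.87 and 15.87 in SUB-EPA 1, 3 and 8. SUB-EPA 1 was the highest of the 6, and the other 2 subcutaneous libraries equalled the lowest brown library, so the tissues overlapped. The mean was 15.97 ± 0.08 (SD, n = 3) in brown and 16.04 ± 0.29 (SD, n = 3) in subcutaneous fat. The difference, brown minus subcutaneous, was -0.07 ± 0.17 SE on the log2 scale, with a 95% interval from -0.48 to 0.33 and an adjusted p of 0.711 in the limma fit over 269 arms. As a fold of brown over subcutaneous fat, the interval runs from 0.718 to 1.26. The miRNA ranked 8 to 11 in every library and made up 2.49% to 3.54% of the summed linear values. It took only 3 distinct values, and in each library the arms 1 rank above and below it lay 0.13 to 0.20 away, which is the resolution of its value.

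MiR-425-5p, the guide of the second hairpin, was listed far lower and also did not pass the test. It stood at 9.59, 9.58 and 9.71 in BF-EPA 3, 4 and 5, and at 9.45, 10.08 and 9.97 in SUB-EPA 1, 3 and 8. Here SUB-EPA 1 was the lowest of the 6 libraries and the other 2 subcutaneous libraries were the highest, so the brown values lay between them. The mean was 9.63 ± 0.07 (SD, n = 3) in brown and 9.84 ± 0.34 (SD, n = 3) in subcutaneous fat, a difference of -0.21 ± 0.22 SE with a 95% interval from -0.75 to 0.33 (limma adjusted p = 0.426). As a fold, the interval runs from 0.596 to 1.26. MiR-425-5p ranked 90 to 103 and made up 0.0287% to 0.0446% of the summed linear values.

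**Figure D1:**
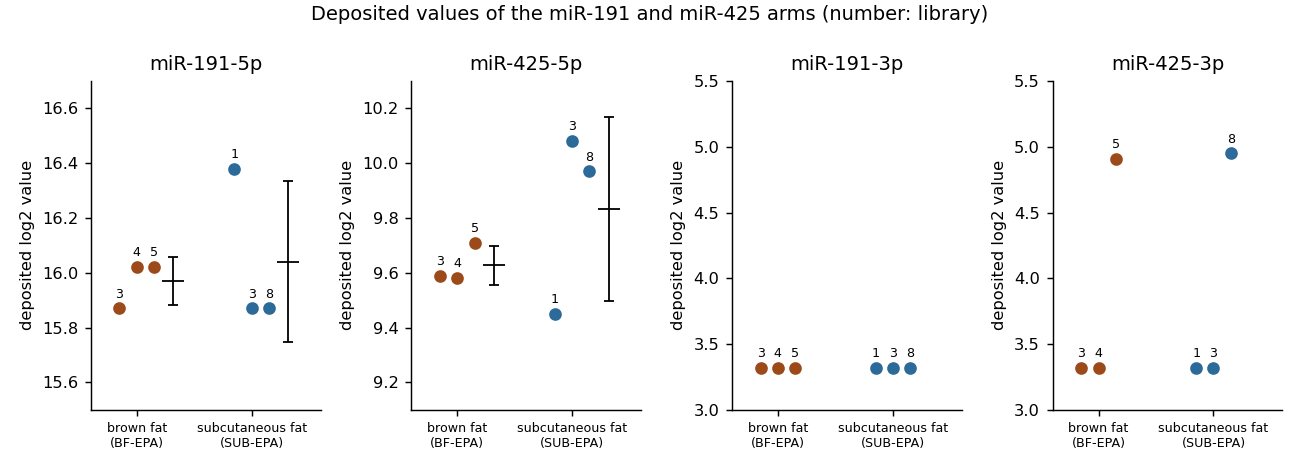
Deposited log2 value (vertical axis, no shared scale between panels) of each arm in the 3 brown and 3 subcutaneous libraries, with each point numbered by library and, for the 5p arms, the mean and SD beside the points. SUB-EPA 1 is the highest point for miR-191-5p (16.38) and the lowest for miR-425-5p (9.45), while the 3p arms sit at or near the floor of 3.32.

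Of the 2 tested arms, 0 were called different between the tissues by limma at an adjusted p of 0.05, and 0 had an unadjusted p under 0.05. Over all 269 tested arms, 69.1% were called, with 33.5% higher and 35.7% lower in brown fat. The 3 values of one tissue lay apart from those of the other for 0 of the 2 arms, while this was so for 74% of all tested. A p that misses the threshold does not show equal levels, and the intervals above give the differences that the data allow. On the deposited values the interval of miR-191-5p lay within ±0.5 on the log2 scale, as for 2 of 269 arms (0.743%). With another scaling, given below, it reached 0.77. As deposited, both members were among the 19 arms (7.06%) whose interval lay within ±1. So were miR-361-5p and miR-30e-5p, 2 of the reference miRNAs examined below.

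The 3p arms, the likely passengers, were barely seen. MiR-191-3p was at the floor in all 6 libraries, although its partner stood 12.55 to 13.06 above the floor on the log2 scale. MiR-425-3p was above the floor in 2 libraries, BF-EPA 5 (4.91) and SUB-EPA 8 (4.95), 1 of each tissue. Neither 3p arm passed the filter on low values, so neither was tested. Among 68 hairpins whose main arm was at least as high as miR-425-5p and whose other arm was in the table, 24 (35.3%) had that other arm at the floor in all 6 libraries. Of the 8 with a main arm at least as high as miR-191-5p, miR-191 was the single one. The ratio of its arms has no value here, because the floor stands in for the level of miR-191-3p.

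The ratio of the 2 hairpins asks whether products of a shared transcript keep step from library to library, and any factor common to a library cancels in it. A normalization that acts differently at different levels need not cancel, and the 2 hairpins stand at different levels. With both arms summed and the floor subtracted, the log2 ratio of miR-191 to miR-425 was 6.30, 6.46 and 6.29 in BF-EPA 3, 4 and 5, and 6.95, 5.80 and 5.88 in SUB-EPA 1, 3 and 8. The brown libraries lay close together, while SUB-EPA 1 was above all of them and the other 2 subcutaneous libraries below. On the linear scale the ratio ran from 55.9 in SUB-EPA 3 to 123 in SUB-EPA 1. The mean was 6.35 ± 0.10 (SD, n = 3) in brown and 6.21 ± 0.64 (SD, n = 3) in subcutaneous fat. The difference was 0.14 (exact two-sided permutation p = 0.9, where 3 against 3 libraries cannot go below 0.1). The 5p arms alone gave 0.13 (exact permutation p = 0.9). The deposited values of the 2 5p arms had a Pearson's r of -0.69 over the 6 libraries, which share the scaling of each library, as a description. SUB-EPA 1 was the highest library for miR-191-5p and the lowest for miR-425-5p.

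**Figure D2:**
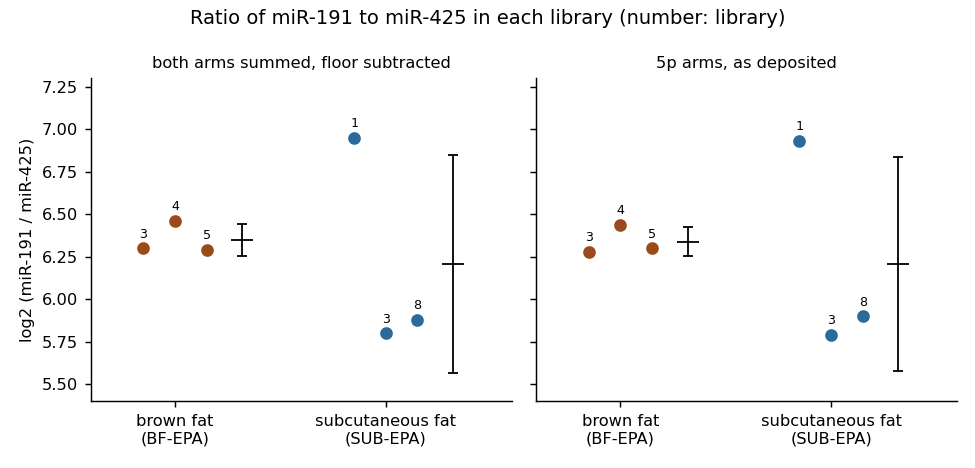
Log2 ratio of miR-191 to miR-425 (vertical axis) in each library, from the summed arms with the floor subtracted (left) and from the 5p arms as deposited (right), with the mean and SD of each tissue beside the points. The brown libraries lie between 6.29 and 6.46 in the left panel, and the subcutaneous ones at 5.80, 5.88 and 6.95.

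Without SUB-EPA 1 the ratio separated the tissues, with all 3 brown libraries above both remaining subcutaneous libraries. The difference was then 0.50 for the summed arms (exact permutation p = 0.1, the lowest that 3 against 2 libraries can give). Without that library, the difference of miR-191-5p was 0.10 (limma adjusted p = 0.378) and that of miR-425-5p was -0.40 (limma adjusted p = 0.0729, 95% interval from -0.80 to 0.01). Over the 5 remaining libraries miR-191-5p had a range of 0.15 and an SD of 0.08, rank 2 of 269 from the steadiest. MiR-425-5p had a range of 0.50 and an SD of 0.23 there, rank 12. SUB-EPA 1 is the library with the high epithelial level given above, and the part of that in the result was not tested. Removing a library's trend with GC content (52.2% for miR-191-5p, 47.8% for miR-425-5p) turned the difference of the 5p ratio to -0.43 (exact permutation p = 0.3). The slope of that trend was positive in all 3 brown and negative in all 3 subcutaneous libraries. The trend thus cannot be told apart from the tissue, and its removal can also take out differences between the tissues.

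Steadiness was described by the SD of the log2 value over all 6 libraries, both tissues together. MiR-191-5p had an SD of 0.20 and a range of 0.51, a 1.42-fold span, and ranked 5 of 269 from the steadiest. MiR-425-5p had an SD of 0.25 and a range of 0.63, a 1.54-fold span, and ranked 9. The median SD of all tested arms was 1.35, and 24 arms had a range under 1. Among the 94 arms at or above the level of miR-425-5p, the median SD was 0.78, and 18 had a range under 1. Within the tissues the members stood less far forward. Their SD there was 0.22 and 0.24, ranks 48 and 58. The median SD within tissues was 0.43 over all tested arms, but 0.26 over those 94, close to the members. Without SUB-EPA 1 the members' SD within tissues was 0.06 and 0.07, ranks 7 and 12, beside a median of 0.38 over all tested arms. The 3 steadiest arms at or above the level of miR-425-5p were let-7b-5p (SD 0.13), miR-140-3p (0.19), a cartilage-enriched miRNA, and miR-151-5p (0.19). Among those 94 arms miR-191-5p came 4th and miR-425-5p 8th.

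**Figure D3:**
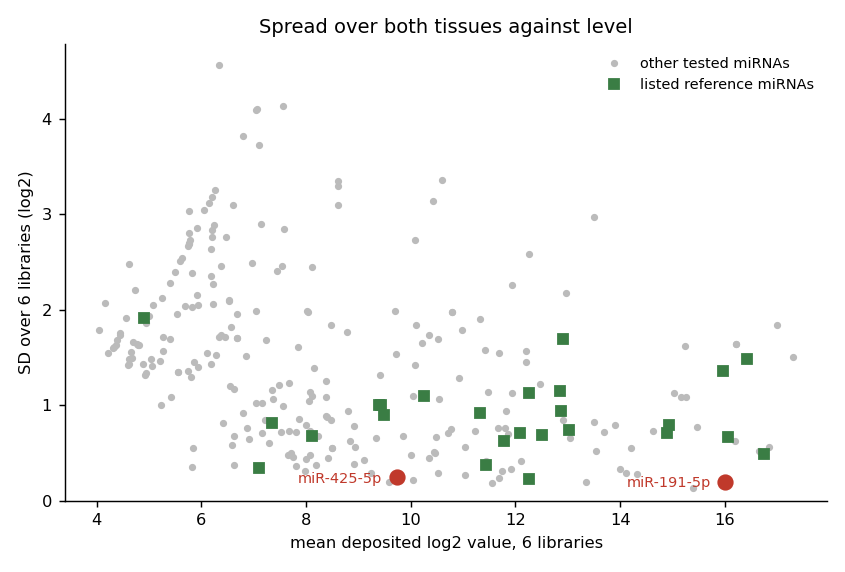
SD over the 6 libraries (vertical axis, log2) against the mean deposited log2 value (horizontal axis) for each tested arm, with the 2 members in red and the listed reference miRNAs as green squares. The members lie at the lower edge at SDs of 0.20 and 0.25, at levels near 16.00 and 9.73, while most listed reference miRNAs lie higher.

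Set beside 25 other miRNAs that are used or proposed as references for quantitative PCR, the members were less different between the depots than most. All 25 were tested, and 8 were called higher and 13 lower in brown fat, while 4 were not called, a share of 84% called beside 69.1% of all tested arms. The median difference of the list was -0.93, and of all tested arms -0.45. The list's median was -0.52 with median-of-ratios scaling, where that of all arms was -0.04, and -0.29 with the GC trend removed. With the sign ignored, the median difference on the deposited values was smaller for the list (1.34) than for all tested arms (1.79). The list's median SD was also smaller, at 0.82 over the 6 libraries beside 1.35, and at 0.36 within tissues beside 0.43. Those not called were miR-22-3p (-0.64), miR-30e-5p (0.17), miR-148b-3p (-0.93) and miR-361-5p (0.01). By level, the first listed ones were miR-22-3p, let-7a-5p, miR-99b-5p, miR-26a-5p, miR-151-3p, miR-30c-5p, miR-23a-3p and miR-423-5p.

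Of these, let-7a-5p, a differentiation-linked miRNA, had a difference of -2.70 ± 0.12 SE, and miR-26a-5p, from introns of Ctdsp genes, one of -2.39 ± 0.27 SE. MiR-23a-3p, cut from a cluster with miR-27a and miR-24-2, had -1.26 ± 0.22 SE. In the other direction, miR-99b-5p had 1.18 ± 0.17 SE, miR-151-3p 1.34 ± 0.23 SE and miR-30c-5p 1.24 ± 0.17 SE. The largest rise in brown fat on the list was that of miR-423-5p, at 2.89 ± 0.46 SE. All 7 of these had limma adjusted p-values of 0.00255 or less.

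Further references, chosen after their values were seen, also changed. MiR-103-3p, which sits in introns of the pantothenate kinase genes, was lower in brown fat (-2.07 ± 0.17 SE) while its near relative miR-107-3p was higher (1.92 ± 0.28 SE). MiR-16-5p, a common choice in blood work, was lower (-1.25 ± 0.18 SE, limma adjusted p = 0.00128), but had -0.32 with the GC trend removed (limma adjusted p = 0.132).

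Shifting whole libraries moves all differences alike, so the listed arms were also examined with the GC trend removed. That trend had opposite signs in the tissues, so its removal is not free of the tissue difference. With median-of-ratios scaling 9 of the 25 were called higher in brown fat, 11 were called lower and 5 were not called. On the deposited values without SUB-EPA 1, 8 were called higher and 13 lower, as with all libraries. With the GC trend removed 22 could be tested, of which 6 were higher, 9 lower and 7 not called. Of those called on the deposited values, 5 then had the opposite sign, namely miR-99b-5p (-0.27), miR-423-3p (-0.11), miR-484 (-0.33), miR-451a (0.63) and miR-186-5p (0.88). Let-7a-5p then had a difference of -0.59 and miR-26a-5p one of -0.88, while miR-103-3p (-1.45) and miR-107-3p (2.54) kept opposite signs. MiR-30e-5p, steady as deposited, had 1.69 (limma adjusted p = 0.000354). The members stood at -0.02 and 0.41 in the same setting.

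Ranked by SD among the 25 and the 2 members, miR-191-5p was 1st, miR-30e-5p (SD 0.22) 2nd and miR-425-5p 3rd of 27.

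**Figure D4:**
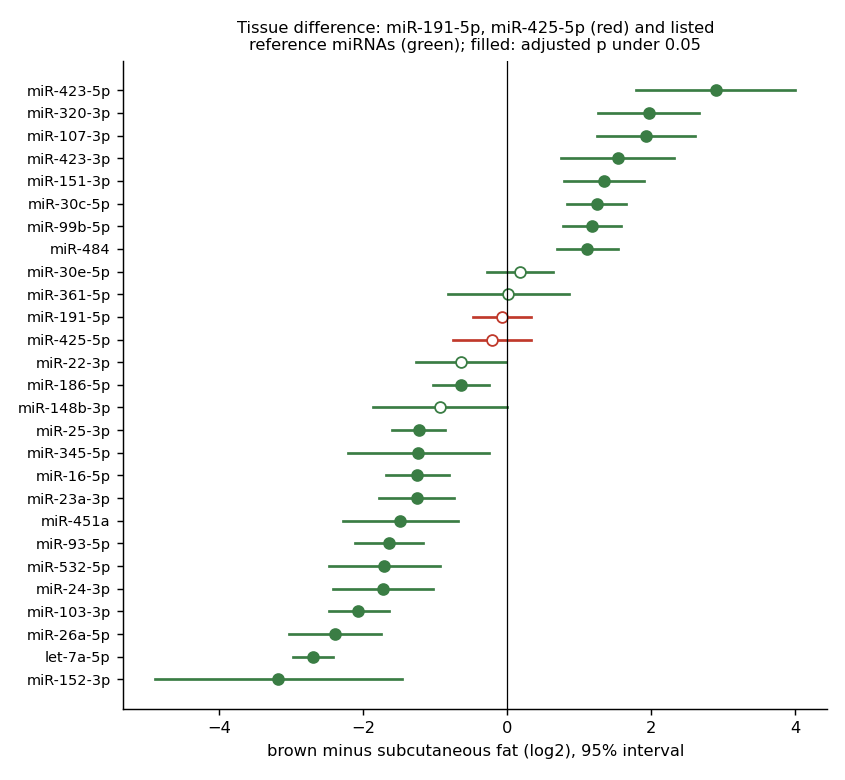
Difference between brown and subcutaneous fat (horizontal axis, log2) with its 95% interval from limma for the 2 members (red) and 25 listed reference miRNAs (green), ordered by size, with filled points for an adjusted p under 0.05. The members lie at -0.07 and -0.21 with open points, and 21 of the 25 listed miRNAs are filled, to both sides of 0.

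A second measure does not change when all values of a library are shifted alike, though it still rests on the normalized values and their GC trend. For each arm the SD of its log2 ratio to each of the listed references above the floor in all 6 libraries (24 of 25) was averaged, as in the geNorm method. This mean was 0.89 for miR-191-5p and 0.85 for miR-425-5p. They ranked 5 and 2 of the 27, after miR-186-5p (0.83) in first place, and 23 and 9 of all 269. The measure depends on the list, whose members themselves moved in both directions.

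The sign of the members' small differences depended on the scaling. Median-of-ratios scaling moved the median difference of all tested arms from -0.45 to -0.04. With it, miR-191-5p had a difference of 0.35 (95% interval from -0.08 to 0.77, limma adjusted p = 0.123) and miR-425-5p one of 0.21 (-0.32 to 0.74, adjusted p = 0.42). Centring each library on the reference list gave 0.24 and 0.11. With the GC trend removed the interval of miR-425-5p ran from -0.10 to 0.92 (limma adjusted p = 0.132) and that of miR-191-5p from -0.50 to 0.46 (limma adjusted p = 0.925). Neither member was called under any of the settings run. Their SD over the 6 libraries ranked 12 and 5 of 269 after median-of-ratios scaling, and 8 and 17 of 229 with the GC trend removed.

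**Figure D5:**
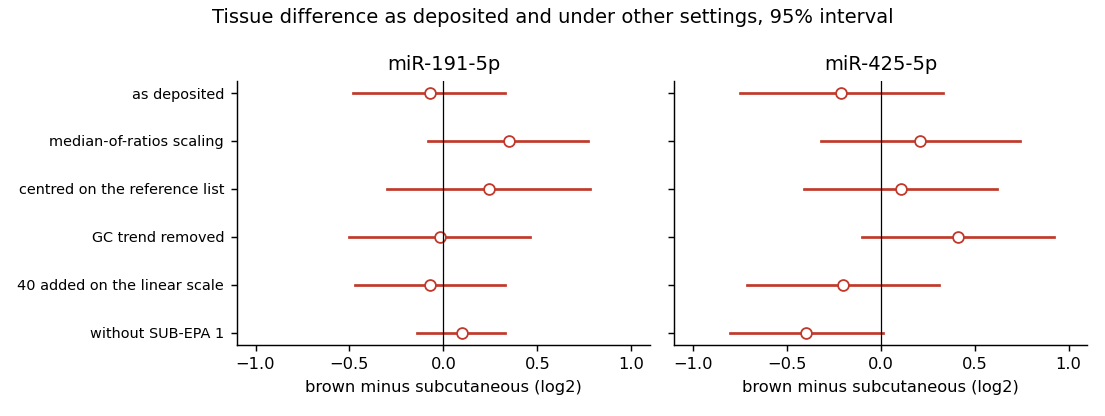
Difference between brown and subcutaneous fat (horizontal axis, log2) with its 95% interval for miR-191-5p (left) and miR-425-5p (right), as deposited and under 5 other settings. Every interval includes 0, and the points lie on both sides of it.

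When each member was itself used as the reference, by subtracting its deviation from every library, most calls were shared with those of the deposited values. Centring on miR-191-5p gave 178 calls, of which 175 were shared with the 186 of the deposited values, 11 were lost and 3 gained. Centring on miR-425-5p gave 179 calls, with 174 shared, 12 lost and 5 gained. Centring on the reference list shared 175 calls with the deposited values, and median-of-ratios scaling 172, so such an overlap is not particular to the members. The median SD within tissues was 0.44 and 0.42 with these, and rose from 0.43 to 0.50 with either member as the reference. The 2 references differ from each other by up to 1.13 on the log2 scale between libraries, the range of the ratio of their 5p arms, which is larger than the range of either member alone. SUB-EPA 1 is at the upper end of that range, which was 0.65 without it.

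The miRNAs nearest to the members were found over the 6 libraries by the SD of the log2 ratio. For miR-191-5p these were miR-127-3p (0.20), miR-434-3p (0.22), both from the imprinted Rtl1 antisense region, and let-7b-5p (0.22), beside a median of 1.31 over 268 partners. MiR-425-5p came 16th on this list, with 0.41. Such an SD is also small for arms that each vary little, and let-7b-5p had a Pearson's r of 0.15 with miR-191-5p. For miR-425-5p the nearest were miR-30c-2-3p (0.10), miR-676-3p (0.14) and miR-339-5p (0.16), and miR-191-5p came 20th. MiR-30c-2-3p, the passenger side of a miR-30 hairpin, had the same shape as miR-425-5p, with its lowest value in SUB-EPA 1 (9.71) and its highest in SUB-EPA 3 (10.38).

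By Pearson's correlation over the 6 libraries, given as a description, miR-191-5p was nearest to miR-200b-3p (r = 0.96), miR-183-5p (0.95) and miR-429-3p (0.93). MiR-200b-3p and miR-429-3p, both epithelial, stood at 9.52 and 8.39 in SUB-EPA 1 and at 4.91 or lower elsewhere, so these values follow that library. MiR-425-5p was nearest to miR-341-3p (0.94), which was above the floor in SUB-EPA 3 and 8 alone, then to miR-30c-2-3p (0.91) and miR-676-3p (0.90).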

How the data were processed

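Small RNA sequencing values of 6 mouse libraries were used. Per the series' design text, the authors mapped reads to mouse build mm10, scaled the counts of each unique read to total usable reads and added 40 counts. The deposited values are on a log2 scale, judged from their range. No aligner or miRNA annotation is named in the sources used here. The 40 added counts do not show, since the lowest linear value is 10.

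Arms were tested if their mean linear value above the floor was at least 24.05 units, a fixed share of the mean library total, which kept 269. The tissue difference was fitted by limma 3.58.1 (R 4.3.3) with variance moderated along a trend in mean level, and p-values were adjusted by Benjamini and Hochberg's method with a threshold of 0.05. Ratios of single values per library were compared with exact permutation tests in Python 3.11.15. Where libraries share a value because of the ranks, SE and p can be too small. The members and lists were chosen with earlier results of these data known. The GC trend, where removed, was that of each library's values on the GC content of the mature sequences. The alternatives were 2 pseudocounts, 2 filters, 3 scalings, 2 variance models, collapsed identical rows and left-out libraries; centring on a member and a block by source-name number were added after the data were seen.

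Named arms were the members, seed mates, the 8 most abundant listed references, the 3 nearest arms by each likeness measure and the 3 steadiest arms. Sequences are from RefSeq (GRCm38.p6) and gene positions from RefSeq and GENCODE M21, which use the same assembly as mm10. GC content was known for 229 of the tested arms (85.1%).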

Additional observations from a re-analysis of the deposited data

How the results depend on the processing

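The adjusted p of miR-191-5p lay between 0.123 and 0.932 and that of miR-425-5p between 0.0729 and 0.835 over 19 other settings each, so neither was called in any, but the sign of the difference changed in 4 and 3 of them. For miR-191-5p it was 0.346 with median-of-ratios scaling, 0.244 centred on the reference list, 0.135 centred on miR-425-5p, and from -0.156 to 0.097 without 1 library, positive without SUB-EPA 1. For miR-425-5p it was 0.211 with median-of-ratios scaling, 0.109 centred on the reference list, 0.411 with the GC trend removed, and from -0.398 to -0.085 without 1 library. The hairpin ratio differed by -0.067 to 0.503 without 1 library, negative without SUB-EPA 3 or SUB-EPA 8, and by -0.043 with both libraries numbered 3 left out, and the ratio of the 5p arms by -0.072 to 0.495 (negative without the same libraries), by -0.041, and by -0.432 with the GC trend removed. The causes were not tested. The number of called arms lay between 127 and 189 over 20 settings, the lowest with the stricter filter, which tests fewer arms. Leaving out both libraries numbered 3 leaves 2 per tissue. The titles of the 2 tissues share only the number 3, but the source names number the libraries of each tissue 4, 5 and 6. With that number as a replicate block, the differences were -0.072 (limma adjusted p = 0.77) and -0.207 (0.49), and 185 arms were called. Same-numbered libraries had correlations of 0.04, 0.18 and 0.07 between their deviations from the tissue means, and differently numbered ones -0.24 to 0.15. Of the 6 libraries, 4 correlated best with their own number. For numbers 4, 5 and 6, the summed muscle level was 10.31, 17.21 and 12.5 among the brown libraries. The subcutaneous libraries gave 10.73, 16.91 and 13.33, in the same order. The summed epithelial level did not follow the numbers, with 8.25 in BF-EPA 3 and 15.27 in SUB-EPA 1, both numbered 4. Whether the numbers pair the samples is thus unknown, and all tests apart from the fit with that block treat the libraries as unpaired. The GC trend could not be removed from the summed arms, as the 3p arms were not tested. Most alternatives for the 3p arms were not run, as neither was tested. Ratios of the 2 arms of a hairpin were not run, the 3p arms being at the floor.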

Other observations

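The pair can be set beside other neighbouring miRNA hairpins of the mouse genome, a comparison chosen after the data were seen. The highest tested arm with a single RefSeq locus was taken for each hairpin, and 63 pairs from different hairpins lay within 10000 bases of each other on the same strand. Arms with several loci were dropped first, so the arm taken is not always the main one, as with miR-24-2-5p. These pairs share arms and libraries, so their ranks are a description. The SD of the log2 ratio over the 6 libraries was 0.41 for miR-191-5p and miR-425-5p, rank 7 of 63 from the steadiest, beside a median of 1.34. Each of these arms varied little by itself (SD 0.20 and 0.25), and their Pearson's r was -0.69. The rank therefore does not show that they rise and fall together. The ratio differed between the tissues by 0.13, rank 8, beside a median of 1.84. Within tissues, its SD was 0.45, rank 22, beside a median of 0.56. Without SUB-EPA 1 the SD was 0.28 (rank 3), the tissue difference 0.50 (rank 11) and the SD within tissues 0.08 (rank 1). With the GC trend removed these were 0.49 (rank 11), 0.43 (rank 11) and 0.49 (rank 25). The 3 steadiest ratios on the deposited values were those of miR-127-3p to miR-434-3p (SD 0.19, Pearson's r 0.75), miR-23a-3p to miR-27a-3p (0.28, r 0.93), and miR-25-3p to miR-93-5p (0.28, r 0.98). The last of these pairs is from the cluster within Mcm7.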
